A study of Nasonia vitripennis with 70 samples.

Results

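The 200 genes described here are transcribed far more in heads than in abdomens of the parasitoid wasp Nasonia vitripennis, in both sexes. They were chosen from 14613 genes in the authors' table of TPM (a transcript level corrected for gene length and library size), of which 13784 carry a symbol of the LOC form and 4971 of those reached the minimum head level. For each LOC gene, A was the smaller of its mean head level in diploid females (F2 and F14 together) and in haploid males (F5 and F15 together), and B the larger of the matching abdomen means. Genes with A of at least 20 TPM were ranked by (A + 0.1)/(B + 0.1), and the first 200 were taken. Triploid females and diploid males played no part in the choice, so their heads and abdomens are the samples in which the choice can be tested.

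All wasps belong to WGDL, 1 neo-polyploid strain that came from a genome duplication induced with colchicine, and all were sampled 1 day after emergence. Diploid (2N, n = 4) and triploid (3N, n = 5) females of generation F2, diploid (n = 4) and triploid (n = 4) females of F14, haploid (1N, n = 5) and diploid (n = 5) males of F5, and haploid (n = 4) and diploid (n = 4) males of F15 each gave head and abdomen libraries of poly-A RNA, 70 in all. Each n is the number of libraries per tissue. The number of wasps per library, and any pairing of heads with abdomens, are not given in the sources at hand, so p values measure the spread between libraries, part of which may be technical. Females and males were taken at different generations, and generation cannot be told apart from date of collection.

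As background, Nasonia is haplodiploid: females normally develop from fertilised diploid eggs, and males from unfertilised haploid eggs. An insect head holds the brain, the eyes, the mouthparts and the antennae, whose sensory neurons detect odours through receptors that need a shared co-receptor (Or1 in Nasonia). Neurons, photoreceptors and sensory support cells rely on transcripts that abdominal tissues such as gut, fat body and gonads largely lack. The LOC symbols in the files carry no description, so the genes below are told apart by where and when they were expressed, not by function.

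By the values that chose them, the members had A between 20.1 and 4839 TPM (median 89.2) and B between 0 and 219 TPM (median 3.04), with ratios from 15.9 to 1813 (median 23.2). The first ranks were held by LOC107981322, LOC100115165, LOC100116789, LOC103315529, LOC100121036, LOC100113720, LOC100124184 and LOC100120898. The last member by rank, LOC100120135, had a ratio of 15.9, and the next genes in line, LOC100118812 and LOC100123929, had 15.8 each. LOC100120135 also had the lowest A, and LOC100116958 (A of 19.4 TPM) and LOC107980729 (18.6 TPM) missed the minimum. In the reference annotation 194 members were protein coding and 6 were long non-coding RNAs (3%, against 6.85% of the genes in the table). Of the 200, 16 lay beside another member in the gene order, as 8 pairs. One pair was LOC100119747 and LOC100119774, and another was LOC100679541 and LOC100118179.

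Library totals lay between 12.2 and 25.1 M estimated counts. One library went against its label. C46, labelled as an F5 diploid male abdomen, had a summed level over the 200 genes of 55392 TPM, against 805 to 1666 TPM in the other 4 abdomens of its group and 47247 to 66298 TPM in the 5 heads of those males. It stood above all 4 other abdomens for 198 members and inside the range of the 5 heads for 148. The shares of all genes that did so were not counted. Over the genes counted in each pair of libraries, the chi-square per gene, a measure of difference, was 1043 to 1423 between C46 and those abdomens. Between C46 and the heads it was 66.6 to 382. Genes outside the list gave the same picture: Lop1, a long-wavelength opsin of the eye, read 3337 TPM in C46 and at most 0.28 TPM in the other 4, and Or1 read 10.7 TPM against at most 0.85 TPM. Its group is therefore given with and without it. In all other abdomens Or1 was at most 2.22 TPM and Lop1 at most 2.54 TPM, and in every head Lop1 was at least 934 TPM.

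**Figure D1:**
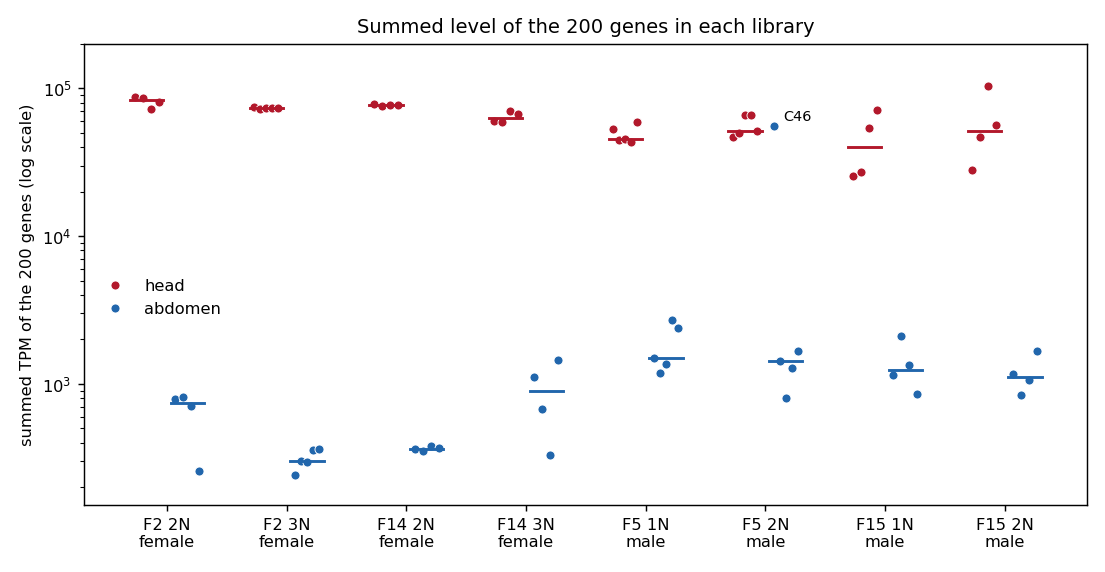
Summed TPM of the 200 genes in each of the 70 libraries (vertical axis, log scale), heads in red and abdomens in blue, by generation, ploidy and sex; points are libraries and bars are group medians. Heads lie between 25515 and 103583 TPM and abdomens between 241 and 2716 TPM, apart from C46, the library labelled F5 diploid male abdomen, at 55392 TPM.

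In the heads of triploid females and diploid males, groups outside the choice, the members kept their high level. Averaged by group, 186 members reached at least 20 TPM in F2 triploid heads, 192 in F14 triploid heads, 199 in F5 diploid male heads and 196 in F15 diploid male heads. The median member had a mean of 118 TPM, 180.4 TPM, 113 TPM and 127 TPM in these groups. Of the 200, 189 were at 1 TPM or more in all 35 heads of the study. The most abundant member was LOC100679541, at 12851, 11616, 13279.9, 11803 and 12232 TPM in F2 triploid heads, 4475, 3729.96, 5969 and 7050.5 TPM in F14 triploid heads, 7312, 6566, 6147, 7646 and 8289 TPM in F5 diploid male heads and 2367, 3535, 7323 and 5529.8 TPM in F15 diploid male heads. LOC100115151, LOC100118179, LOC116417409, LOC100115165 and LOC100123898 followed it. LOC100118179, the annotated neighbour of LOC100679541, read 3465, 2949, 3318, 2857 and 2957 TPM in F2 triploid heads.

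**Figure D2:**
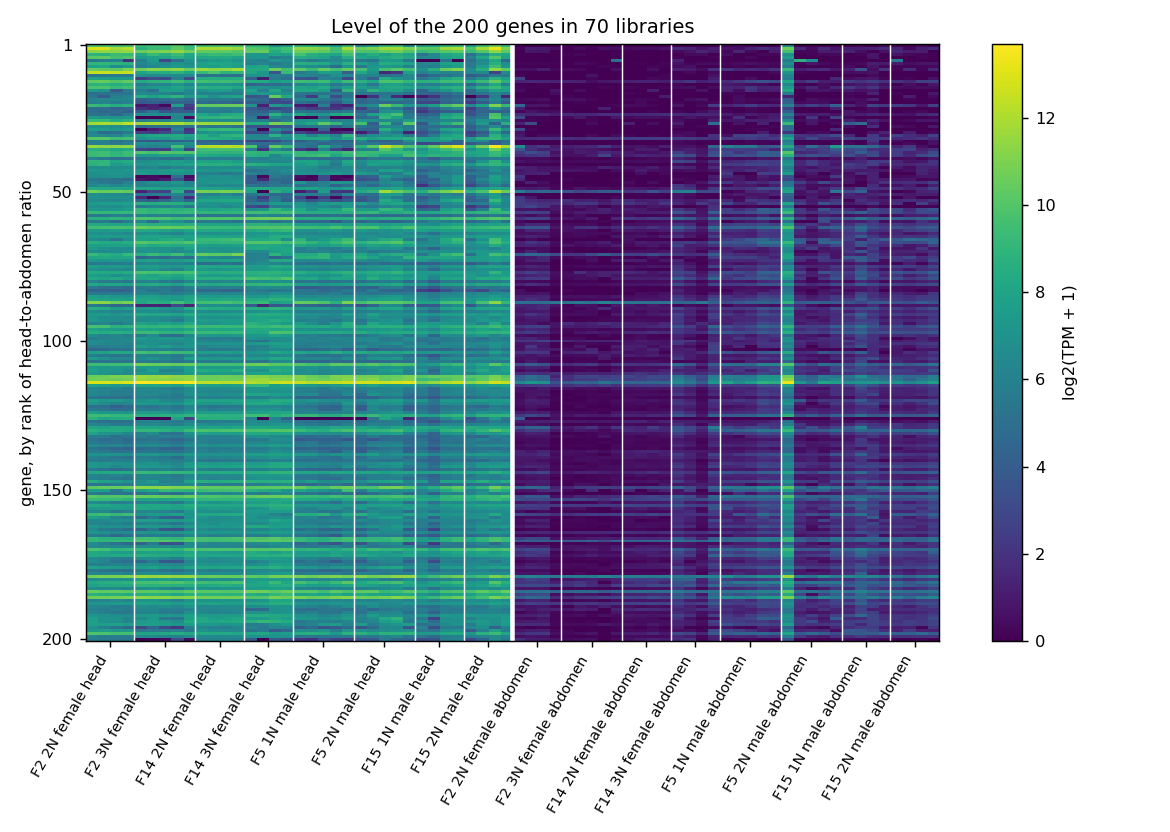
Level of each of the 200 genes (rows, ordered by rank in the choice) in each of the 70 libraries (columns, heads left of the wide white line and abdomens right of it), as log2(TPM + 1). Heads are bright for nearly all genes and abdomens dark, C46 is a bright column among the abdomens, and 11 genes show dark cells in some heads, most often in F2 triploid females and F5 haploid males.

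Heads against abdomens of F2 triploid females showed all 200 members higher in heads (edgeR quasi-likelihood test, adjusted p below 0.05), where 43.5% of all 12114 genes tested were higher. The median log2 fold change was 8.90 over the members and 0.25 over all genes. For 16 members no abdomen of the group had a count, and the median was 8.87 with those at their lower bound, computed against 3 counts over the group. All 5 heads stood above all 5 abdomens for 192 members, and for 40.1% of all genes tested. Of the rest, the fold changes of 3 named members turned negative when a single head, C34, was left out. LOC100113624 read 1.4, 6.15, 5.85, 407 and 6.55 TPM in the heads and 11.3, 6.54, 9.49, 15.8 and 15.5 TPM in the abdomens. Only the fourth head, C34, stood above all 5 abdomens, and without it the log2 fold change turned from 2.85 (SE 1.07, adjusted p = 0.0162) to -1.47. The fold changes of LOC100119774 and LOC100120135 also turned, to -2.56 and -0.66. In that refit without C34, 195 members were higher in heads, 5 were not called and none were lower, with 42.2% of all genes higher.

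In F14 triploid females 198 members were higher in heads, where 32.7% of all genes were, with a median log2 fold change of 5.94 (over all genes -0.06; 5.94 also with the 5 members without a count in these abdomens at their bound). All 4 heads stood above all 4 abdomens for 189 members, and for 36% of all genes. The 2 members that did not pass were LOC100120135 (log2 fold change 1.85, SE 0.99, adjusted p = 0.0956) and LOC100113624 (log2 fold change 2.06, SE 1.14, adjusted p = 0.109). LOC100113624 read 272, 0, 443 and 214 TPM in these heads and 58.4, 71.7, 7.67 and 7.26 TPM in the abdomens, so the head at 0, C62, lay below all 4 abdomens and the other 3 heads above them. LOC100120135 read 14.5, 0, 12.6 and 9.01 TPM and 2.06, 3.11, 0.14 and 1.33 TPM, again with C62 at 0.

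In F15 diploid males 199 members were higher in heads, against 29.9% of all 12387 genes tested, with a median log2 fold change of 4.97 (over all genes 0.04). All 4 heads stood above all 4 abdomens for 197 members, and for 35.4% of all genes. In F5 diploid males the labelled groups gave 129 members higher, where 20.5% of all genes were, and a median log2 fold change of 2.03. Without C46 the same comparison gave 199 members higher, where 29.2% of all genes were, and a median of 5.04; all 5 heads then stood above all 4 abdomens for 197 members and for 30.5% of all genes. No member was lower in heads in any of the 4 tissue comparisons, in which 37.6%, 37.5%, 26.5% and 26.4% of all genes were lower. With C46 in the group, leaving out any other of its abdomens gave 67 to 83 members, with 13% to 15.7% of all genes higher, so the count for these males rests on whether C46 is taken as labelled.

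**Figure D3:**
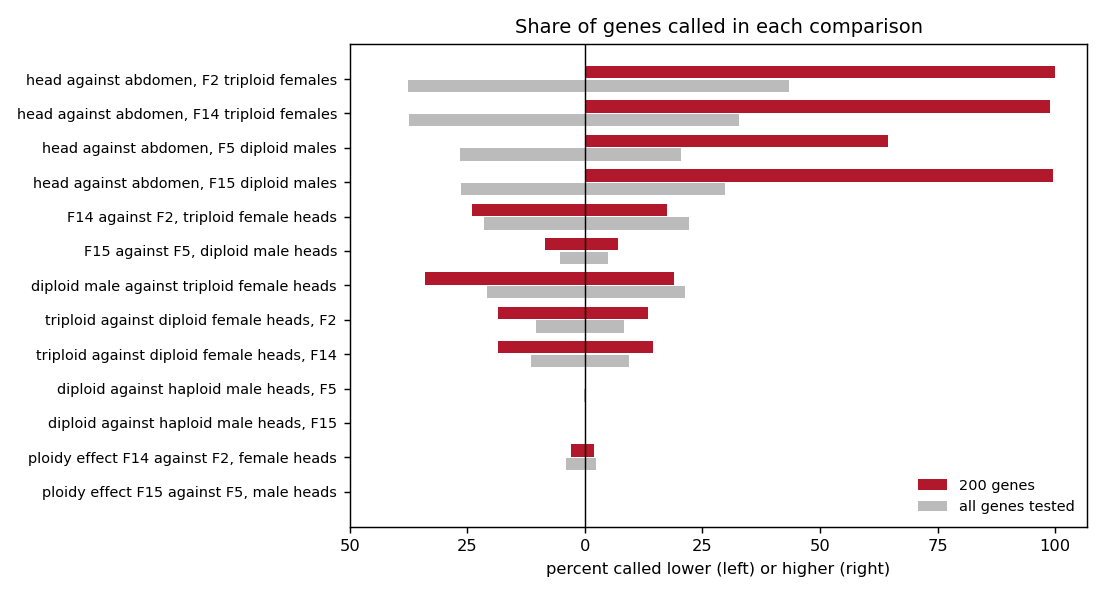
Percent of genes called lower (left of 0) or higher (right of 0) at an adjusted p below 0.05 in each of the 13 comparisons, for the 200 genes (red) and for all genes tested (grey). The tissue comparisons separate the members from the other genes, 100% against 43.5% higher in F2 triploid females, while the comparisons among heads give shares of the members much nearer to those of all genes, for example 17.5% against 22.2% higher in F14 over F2 triploid heads.

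The member that stayed unpassed in both sets of diploid males was LOC100113720, sixth by rank. Its rule values had been 0 TPM in every diploid female and haploid male abdomen. In F5 diploid male abdomens it read 54, 446, 99.2, 0 and 0 TPM (C46 first), and in the heads 40.1, 39.6, 182, 152 and 48.6 TPM. The abdomens C47 and C48 reached into or above the range of the heads, and the last pair were at 0. The log2 fold change was -0.79 (SE 1.19, adjusted p = 0.604), and -0.98 without C46. In F15 diploid males the abdomens read 48.8, 0, 0 and 0 TPM and the heads 32.6, 90.4, 285 and 24.8 TPM (log2 fold change 2.42, SE 1.46, adjusted p = 0.163), so 1 abdomen in 4 overlapped the heads. One F2 triploid abdomen, C40, had 30.9 TPM where the other 4 had 0. In heads it varied as widely: the 4 F15 haploid male heads read 0, 0, 31.5 and 0 TPM.

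Abdomen levels of the members differed between groups. The median member had a mean of 0.277 TPM in F2 triploid abdomens, 1.78 TPM in F14 triploid abdomens, 1.77 TPM in F5 diploid male abdomens without C46 and 2.47 TPM in F15 diploid male abdomens. Below 1 TPM in every abdomen were 134, 35, 37 and 32 members in the same order. Within the F14 triploid abdomens, C66, C67 and C69 had 145, 110 and 150 members at 1 TPM or more and C68 had 52, close to the 31 to 53 of the F2 triploid abdomens. The muscle gene Tm1 read 1009, 835 and 4909 TPM in C66, C67 and C69, and 586 TPM in C68. Zasp66, also a muscle gene, read 50.6, 40.6 and 487 TPM in C66, C67 and C69, and 31.5 TPM in C68. The muscle gene Tm2 went the other way, at 72.3, 65.1 and 52.7 TPM, and 103.5 TPM in C68. The germ line markers oskar and nanos summed to 810.5, 939.5 and 636.5 TPM in C66, C67 and C69, and to 1472 TPM in C68. In F2 triploid abdomens they summed to 1184 to 1621 TPM. The part of muscle and germ line content in the abdomen level was not tested. The highest abdomen levels outside C46 belonged to LOC100679541, at up to 285 TPM in F5 diploid males, to LOC100118179, at up to 115 TPM there, and to LOC100113720, described above.

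Triploid and diploid females were next compared within heads. The diploid heads had taken part in the choice, so a member could enter only if it was high there, and no such demand was made of triploid heads; counts of lower members carry that one-sidedness. In F2, 27 members were higher in triploid heads, where 8.28% of all 11785 genes were, and 37 were lower, where 10.3% were. In F14, 29 were higher against 9.46% of all genes, and 37 lower against 11.5%. Median log2 fold changes were 0.07 and 0.11, close to the 0.03 and 0.10 over all genes. Leaving out any 1 of the 8 F14 heads gave 10 to 19 higher members in place of 29, while the share of all genes higher fell to between 2.47% and 7.07%. Both generations called 24 members lower (12%, against 3.99% of all genes) and 8 higher (4%, against 2.15%), and 1 was called in opposite directions. Some markers of tissues also moved with ploidy. The 3 muscle markers (Tm1, Tm2 and Zasp66) summed to 2174 to 2775 TPM in F2 diploid and 457.5 to 649.9 TPM in F2 triploid heads without overlap. In F14 they summed to 989 to 1634 TPM and 752 to 1858 TPM with overlap. Tm2 alone did not fall. It read 32.4 to 45.2 TPM in F2 diploid and 35.4 to 45.1 TPM in F2 triploid heads. In F14 it read 46.9 to 61.1 TPM in diploid and 50.7 to 89.5 TPM in triploid heads. Both brain peptide markers (Pdf and ACP) summed to 618 to 845 TPM in F2 diploid and 1459 to 1880.3 TPM in F2 triploid heads, and to 599 to 623 TPM and 1046 to 2038 TPM in F14, higher in triploid heads without overlap. Their part in the members' changes was not tested. In bulk heads, fewer cells of a type and less RNA per cell cannot be told apart.

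**Figure D4:**
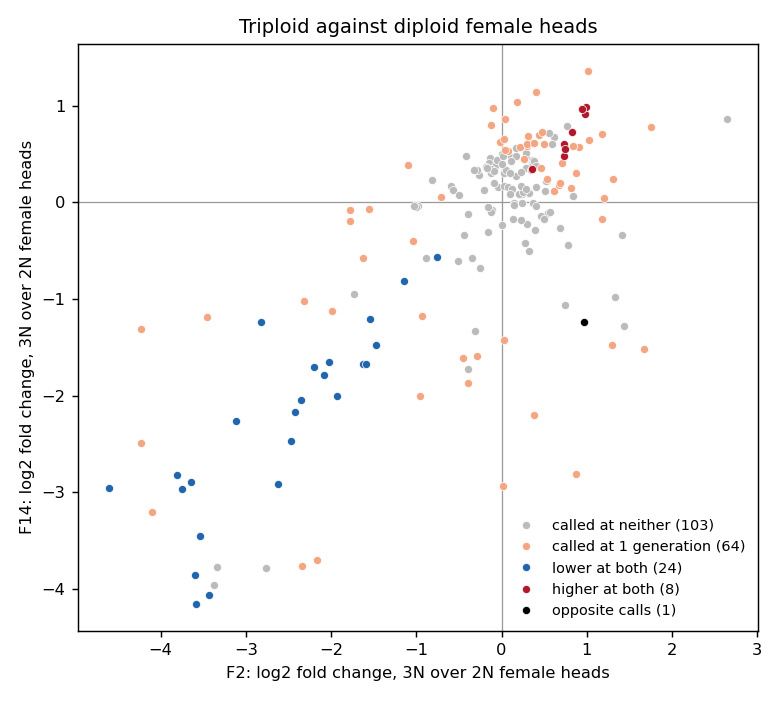
Log2 fold change of each of the 200 genes, triploid over diploid female heads, at F2 (horizontal axis) and F14 (vertical axis). The 24 genes called lower at both generations (blue) run down to log2 values beyond -4, the 8 called higher at both (red) lie below 1 on both axes, 64 were called at 1 generation, and LOC100123590 (black) was called in opposite directions.

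LOC100115165, second by rank, was among the clearest of the 24. It read 7712, 8048, 3552 and 4613 TPM in F2 diploid and 419, 620.5, 594, 1268 and 679 TPM in F2 triploid heads (log2 fold change -3.11, SE 0.43, adjusted p = 6.51e-06). In F14 it read 3934, 3644, 3862 and 3024 TPM and 1066, 979.5, 533 and 746 TPM (log2 fold change -2.27, SE 0.45, adjusted p = 0.000628). Every triploid head lay below every diploid head at both generations. LOC100124184, seventh by rank, fell from 519, 536, 504 and 449.9 TPM to 81.7, 119, 87.7, 135 and 100.1 TPM in F2 (log2 fold change -2.35, SE 0.36, adjusted p = 2.81e-05) and from 226, 259.7, 255 and 230.1 TPM to 62.7, 74.7, 44.2 and 77.1 TPM in F14 (log2 fold change -2.05, SE 0.38, adjusted p = 0.000342). LOC100121036, of rank 5, gave 1133, 1251, 765 and 977 TPM in F2 diploid and 186, 229, 263, 419 and 239 TPM in F2 triploid heads (log2 fold change -2.02, SE 0.42, adjusted p = 0.00132), and a log2 fold change of -1.65 in F14. None of these 6 calls ended when a library was left out or under any other alternative.

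For 4 further members of the 24 every F2 triploid head lay below every F2 diploid head, with C34 the highest of the triploid heads. LOC100116170 read 234, 197, 177 and 167 TPM in F2 diploid heads but 4.66, 8.57, 7.32, 61.05 and 7.82 TPM in F2 triploid heads (log2 fold change -3.43, SE 0.86, adjusted p = 0.00585). In F14 it read 360.1, 375, 339.8 and 356 TPM in diploid and 16.9, 1.05, 49.2 and 30.4 TPM in triploid heads (log2 fold change -4.07, SE 0.97, adjusted p = 0.00327). The head C34 stood above the other F2 triploid heads, and C62 below the other F14 triploid heads. LOC100122995 showed the same order of libraries at F2, 47.1, 39.4, 21.7 and 21.8 TPM against 1.81, 1.53, 1.4, 7.38 and 1.97 TPM (log2 fold change -3.54, SE 0.62, adjusted p = 0.000173), and read 105.3, 111, 97.3 and 100.2 TPM against 14.3, 1.73, 11.8 and 13.6 TPM in F14 (log2 fold change -3.45, SE 0.66, adjusted p = 0.00047). LOC100121976 had 6.93, 4.96, 4.82, 126 and 5.21 TPM in F2 triploid heads and 48.9, 2.58, 100.01 and 44.2 TPM in F14 triploid heads, below the 300.4 to 803 TPM of all 8 diploid heads; its F2 call ended without C31 or C33, and its F14 call without C62. LOC100123898, the sixth most abundant member, read 3049, 2516, 2592 and 2515 TPM in F2 diploid and 65.96, 61.7, 74.6, 773 and 73.4 TPM in F2 triploid heads (log2 fold change -3.65, SE 1.00, adjusted p = 0.0109), and its F14 call (-2.89 on the log2 scale) ended in 7 of the 8 fits that left out a head. Over the 24 members, C34 was the highest of the 5 F2 triploid heads for 22, and for 52 of all 200. The share of all genes highest in C34 was not counted.

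The odorant co-receptor Or1, which is no member, moved with these values. It read 91.1, 75.2, 72.6 and 51.5 TPM in F2 diploid heads and 1.68, 1.47, 1.34, 19.9 and 2.59 TPM in F2 triploid heads, C34 again highest. In F14 it read 239, 245, 264 and 263 TPM in diploid and 34.4, 2.53, 60.3 and 55.9 TPM in triploid heads, C62 again lowest. In males it read 1.76, 2.54, 8.49, 1.35 and 0.97 TPM in F5 haploid, 7.97, 30.1, 101, 36.2 and 19.6 TPM in F5 diploid, 26.9, 36.4, 127 and 239 TPM in F15 haploid and 36.2, 120.02, 314 and 151 TPM in F15 diploid heads. The eye marker Lop1 read 5098 to 9853 TPM in F2 diploid heads, 5547 TPM in C34 and 3042 to 4483 TPM in the other F2 triploid heads, and 4780.3 to 5475 TPM in F14 diploid and 1677 to 4595 TPM in F14 triploid heads. For Lop1, all triploid heads other than C34 thus lay below every diploid head of their generation. C62, lowest for Or1, was the highest F14 triploid head for Lop1. HisCl1, also listed as an eye marker, did not follow Lop1. It read 32.6 to 95.7 TPM in F2 diploid and 54.5 to 141.2 TPM in F2 triploid heads. In F14 it read 106.5 to 130.5 TPM in diploid and 96.1 to 141.8 TPM in triploid heads, with C62 lowest. The part of antennal and eye content in the members' levels was not tested.

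Of the members, 11 dropped below 1 TPM in at least 1 head, a set picked after its values were seen and with no single pattern over the groups. It holds LOC100113720, LOC100117414, LOC100116232, LOC100119774, LOC100119747, LOC116415850, LOC100123070, LOC100113624, LOC100680393, LOC107980651 and LOC100120135. LOC100117414 read 167 to 479 TPM in F2 triploid heads, where Or1 was low, and LOC100113720 was at 0 in 3 of 4 F15 haploid male heads, where Or1 read 26.9 to 239 TPM. LOC107980651 read 438, 251, 344 and 370.4 TPM in F2 diploid heads, 0, 0, 0, 239 and 6.3 TPM in F2 triploid heads and 61.9, 0, 66.2 and 16.04 TPM in F14 triploid heads, and was listed at 0 in all 5 F5 haploid male heads. It met the rule through F15 haploid male heads, at 20.4, 25.9, 93.98 and 222 TPM. LOC100119774 was at 0 in 3 of 5 F2 triploid heads (0, 0, 0, 68.3 and 0.31 TPM) and in 4 of 5 F5 haploid male heads (0, 0, 21.7, 0 and 0 TPM), where C53 was the exception. Its neighbour LOC100119747 read 0, 1.08, 2.05, 65.8 and 3.32 TPM and 0, 0, 21.3, 0.15 and 0 TPM in the same heads, so the pair shared its high libraries.

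LOC100116232 spanned a wide range over the heads. It read 1297, 1355, 1452 and 1451 TPM in F14 diploid female heads, 0.92, 1.35, 0.28, 205 and 5.61 TPM in F2 triploid heads and 1.2, 0.91, 52.1, 2.5 and 1.18 TPM in F5 haploid male heads. Neither ploidy comparison of females called it (log2 fold change -3.38, SE 1.39, adjusted p = 0.0849 in F2, log2 fold change -3.96, SE 1.55, adjusted p = 0.0681 in F14), and in each triploid group 1 head stood far from the others. LOC100680393, also of the 11, was called at both, with 116, 114, 123 and 104 TPM against 2.14, 0, 1.98, 34 and 2.12 TPM in F2 (log2 fold change -3.81, SE 0.87, adjusted p = 0.00271); its F14 call (log2 fold change -2.82, SE 0.90, adjusted p = 0.0247) ended without C61 or C62. LOC116415850 and LOC100113624 were called lower in F2 only, with log2 fold changes of -4.23 and -4.10, the second ending in 7 of the 9 fits that left out a head. No test found the F2 and F14 effects of these 2 genes to differ.

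**Figure D5:**
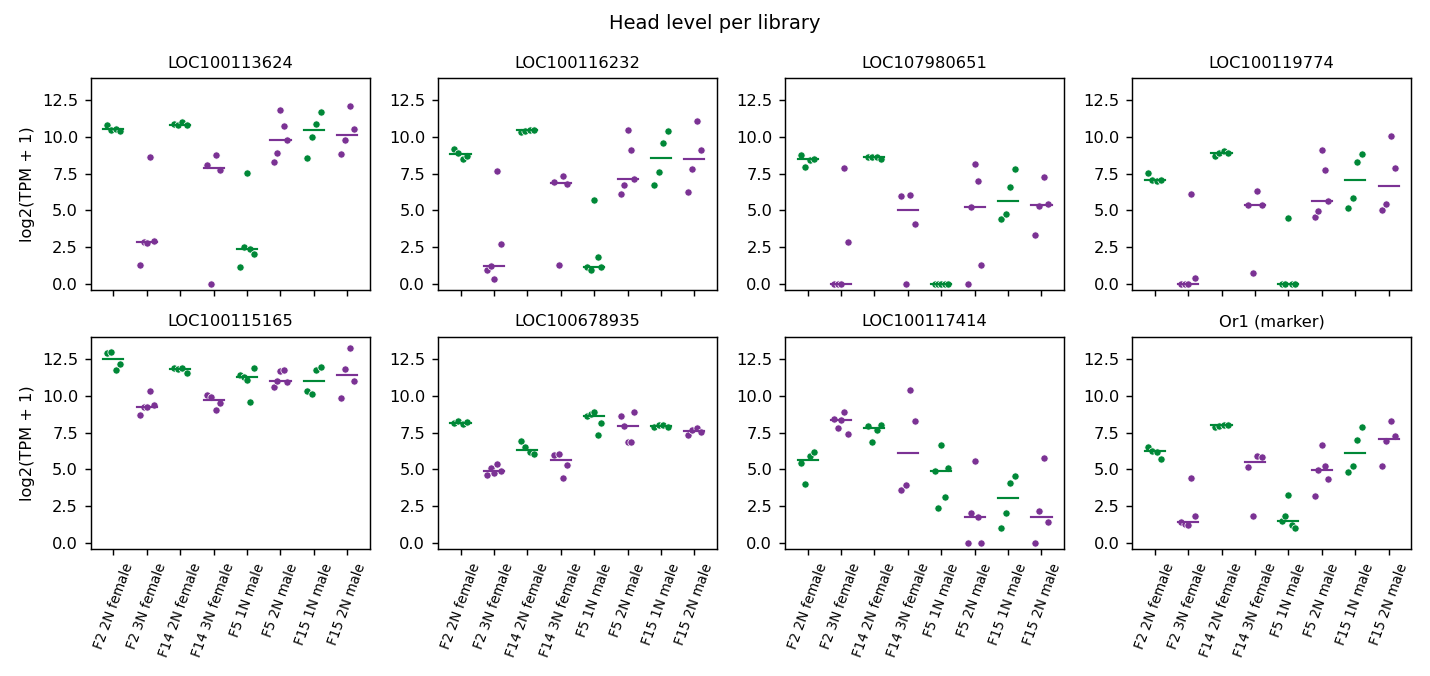
Head level per library of 7 members and of the marker Or1, as log2(TPM + 1); points are libraries, bars are group medians, green marks diploid females and haploid males and purple marks triploid females and diploid males. LOC100113624, LOC100116232, LOC107980651 and LOC100119774 are low in the F2 triploid heads other than C34 and in the F5 haploid male heads other than C53 (LOC107980651 in all 5), LOC100678935 is lower in F2 triploid than in F2 diploid heads, and LOC100117414 is higher in triploid female than in diploid male heads.

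The 8 members higher in triploid heads at both generations changed by 0.99 or less on the log2 scale. LOC116417309 rose from 32.7, 34.2, 35.9 and 37.2 TPM to 91.8, 76.03, 74.5, 50 and 76.8 TPM in F2 (log2 fold change 0.95, SE 0.17, adjusted p = 0.000166) and from 63.9, 71, 58.5 and 56.8 TPM to 133, 158, 142 and 111 TPM in F14 (log2 fold change 0.96, SE 0.17, adjusted p = 0.000219). LOC100117599 rose from 205, 176, 114 and 142 TPM to 306, 241, 338, 256 and 379 TPM in F2 (log2 fold change 0.83, SE 0.17, adjusted p = 0.00101) and by 0.73 on the log2 scale in F14. The heads did not overlap for either gene at either generation, and no left-out head ended those calls. LOC100117118 read 411, 419, 492 and 469.9 TPM and 967, 888, 902, 681 and 833 TPM in F2, and 928, 979, 978 and 947 TPM and 1436, 1661, 1779.7 and 1810.1 TPM in F14, with log2 fold changes of 0.73 and 0.60; the second ended without C64. LOC100121698 gave 0.99 and 0.98, its F2 call ending without C21 and its F14 call without C61, C72 or C74. LOC100119666 (0.98 and 0.92) and LOC100679245 (0.74 and 0.55) lost their F14 calls whenever any of the 8 heads was left out. None of the 8 had C34 as the highest F2 triploid head or C62 as the lowest F14 triploid head.

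Several members changed with ploidy at 1 generation, and for 10 the difference between generations was itself called, 4 upward and 6 downward, against 2.31% and 3.94% of all genes. Leaving out any F14 diploid head, or C61, C62, C64, C21 or C23, gave 0 to 2 upward calls, with 0.882% to 1.84% of all genes called upward, and leaving out C23 gave 3 downward calls, with 2.86% of all genes downward. LOC100678935 read 289.6, 315, 266 and 293 TPM in F2 diploid and 23.5, 32.5, 26.4, 40.5 and 28.6 TPM in F2 triploid heads (log2 fold change -3.46, SE 0.43, adjusted p = 2e-06). In F14 it read 124, 90.3, 71.6 and 66.5 TPM and 61.7, 63.5, 20.4 and 38.9 TPM (log2 fold change -1.19, SE 0.44, adjusted p = 0.0523). The F14 effect exceeded the F2 effect by 2.27 on the log2 scale (SE 0.60, adjusted p = 0.0207), a call that ended without C61, C62 or C74. LOC100677966 went the other way, at 64.1, 42.2, 36.97 and 71.3 TPM against 71.3, 116, 107, 155 and 68.7 TPM in F2 and 127, 145, 138 and 159 TPM against 15.6, 20.9, 34.6 and 21.4 TPM in F14, a difference between effects of -3.67 (SE 0.67, adjusted p = 0.00137) that no left-out head ended. F14 triploid heads were the lowest of the 4 female head groups, without overlap. LOC100680305 was raised in F2 alone, 325, 310.1, 313 and 354 TPM against 928, 770.1, 828, 731 and 812 TPM (log2 fold change 1.21, SE 0.19, adjusted p = 4.27e-05), and not in F14 (log2 fold change 0.04, SE 0.19, adjusted p = 0.913); the difference was -1.17 (SE 0.27, adjusted p = 0.00796), and it did not pass with TPM. LOC100679671 read 5495, 6515, 5512 and 5754 TPM in F2 diploid heads and 250.2, 353, 351, 432 and 264 TPM in F2 triploid heads (log2 fold change -4.23, SE 1.05, adjusted p = 0.00519), and at most 907 TPM in any other head of the study.

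Diploid and haploid males were compared in the same way, with haploid heads part of the choice. No member passed in F5, where 0.322% of all genes were higher and 0.102% lower, or in F15, where 0.0255% were higher and none lower. At an unadjusted p below 0.05 there were 24 members in F5 (12%, against 10.3% of all genes) and 52 in F15 (26%, against 13.1%). DESeq2 called 9 and 8 higher, where 1.1% and 1.68% of the 12192 and 2682 genes it gave an adjusted p were. Median log2 fold changes were 0.07 in F5 and 0.29 in F15, against 0.03 and -0.02 over all genes. Spread within the male groups was wide. In F15 diploid heads LOC100115165 read 931, 3714, 9851 and 2109 TPM, and in F15 haploid heads 1282, 1129, 3477 and 4013 TPM (log2 fold change 0.55, SE 0.43, adjusted p = 0.588). The third diploid head, C93, stood far above the other 3, and the groups overlapped. C93 was the highest F15 diploid head for 128 of the 200 members, and the share of all genes highest in C93 was not counted. Its members summed to 103583 TPM against 28087 to 56854 TPM in the other 3. The eye marker Lop1 read 14514 TPM in C93 against 934 to 4168 TPM. HisCl1 differed less, at 100.2 TPM against 81.2 to 89.8 TPM. White read 1.67 TPM in C93, inside the 0.82 to 6.75 TPM of the other 3. The summed muscle markers were lower in C93, at 582.1 TPM against 3301 to 9255 TPM in the other 3. In F15 haploid heads, C81 and C82, with the lowest sums of the members (25515 and 27006 TPM), had 6499.7 and 7159 TPM of muscle markers. C83 and C84 had 2754 and 1245 TPM of them. Tm2 alone did not keep this order. It read 129, 45, 49.8 and 48.7 TPM in C91, C92, C93 and C94. In C81, C82, C83 and C84 it read 182, 32.9, 57.05 and 55.6 TPM. The part of eye and muscle content was not tested.

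LOC100123070 and LOC100123898 were among the members whose F5 male groups did not overlap, but neither passed. LOC100123070 read 0.29, 0.28, 7.4, 0.27 and 0.66 TPM in haploid and 9.15, 11.3, 77.3, 30.1 and 17.1 TPM in diploid heads (log2 fold change 3.59, SE 0.94, adjusted p = 0.0758). LOC100123898 read 44.5, 29.8, 335, 61.8 and 28.6 TPM and 451, 1159, 6137, 2753 and 924 TPM (log2 fold change 4.03, SE 0.99, adjusted p = 0.0565). For Or1 the F5 groups overlapped by C53 (8.49 TPM, haploid) and C41 (7.97 TPM, diploid) alone. In F5, leaving out the haploid head C53 gave 9 higher members, and leaving out the diploid heads C42 or C41 gave 8 or 4, while the share of all genes higher rose with them, to 0.984%, 1.02% and 0.56%. In F15, leaving out C91 or C84 gave 7 or 4, with 0.341% and 0.133% of all genes higher. The difference of the F15 and F5 effects passed for no member by edgeR, where 0.00849% of all genes were lower; DESeq2 called 1 member lower, and 0.184% of all genes.

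Diploid male heads were also set against triploid female heads, with both generations of each weighted equally and no sample of the choice involved. Sex, ploidy and generation cannot be told apart in this comparison. Of the members 38 were higher in males, where 21.2% of all genes were, and 68 lower, where 20.8% were; with TPM in place of scaled counts 30 were higher and 114 lower, where 11.7% and 42.4% of all genes were, and the median of all genes moved by -0.30. The largest fall was in LOC100117414, which read 351, 227, 325, 479 and 167 TPM in F2 triploid, 10.97, 14.2, 1356 and 312 TPM in F14 triploid, 0, 3.03, 45.6, 2.39 and 0 TPM in F5 diploid male and 0, 3.44, 53.7 and 1.66 TPM in F15 diploid male heads (log2 fold change -4.83, SE 0.94, adjusted p = 0.000146). Female and male heads overlapped through the first pair of F14 triploid heads. Among the groups of the choice it read 242, 115, 205 and 255 TPM in F14 diploid females and 1.01, 3.06, 15.8 and 22.6 TPM in F15 haploid males. LOC103315759 was steadier, at 60 to 75.2 TPM and 57.8 to 103 TPM in triploid female heads and 24.9 to 40.4 TPM and 13.3 to 46.9 TPM in diploid male heads (log2 fold change -1.03, SE 0.14, adjusted p = 8.81e-07), with no overlap. LOC100678935 (log2 fold change 3.07, SE 0.31, adjusted p = 1.2e-08) and LOC100122995 (log2 fold change 3.46, SE 0.45, adjusted p = 6.13e-07) rose in male heads. LOC100678935 read 401, 242, 115, 117 and 487 TPM in F5 and 159, 202, 227 and 183 TPM in F15 diploid males, above all 9 triploid heads.

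Later and earlier generations were compared within triploid females and within diploid males, and the members' shares were near those of all genes. In F14 against F2 triploid heads 35 members (17.5%) were higher, where 22.2% of all genes were, and 48 (24%) lower, where 21.4% were; with TPM the counts were 74 and 26, where 37.8% and 7.14% of all genes were, as the median of all genes moved by 0.40. The 35 became 19 without C63 or C64 and 21 without C33, with 16.8%, 19.6% and 18.2% of all genes higher. LOC100122889 read 752, 611, 769.96, 598 and 583 TPM in F2 and 132, 142, 323 and 208 TPM in F14 triploid heads (log2 fold change -2.32, SE 0.31, adjusted p = 5.63e-06). LOC100120713 went up, from 62.6, 111, 36.03, 33.4 and 127 TPM to 327, 329.5, 278 and 283 TPM (log2 fold change 1.62, SE 0.34, adjusted p = 0.000622). Neither gene overlapped between generations. In F15 against F5 diploid male heads 14 members (7%) were higher, where 4.84% of all genes were, and 17 (8.5%) lower, where 5.33% were. LOC100122889 was lower again, from 337, 266, 292, 239 and 328 TPM to 112, 89.03, 231 and 117 TPM (log2 fold change -1.38, SE 0.30, adjusted p = 0.00515). LOC100117118 rose in males from 401, 323, 394, 447 and 403 TPM to 534, 826, 1109.8 and 917 TPM (log2 fold change 0.97, SE 0.15, adjusted p = 0.000336) and in triploid females by 0.58 on the log2 scale. Leaving out C92 gave 2 higher and 4 lower members in males, leaving out C91 gave 6 and 6, leaving out C43 gave 8 higher, leaving out C93 gave 29 lower, and leaving out C45 or C41 gave 9 or 10 lower; LOC100122889 and LOC100117118 kept their calls in all of these. In these refits 1.75% to 8.05% of all genes were higher or lower. No member passed when the F5 and F15 diploid heads were fitted alone, where 0.0189% of all genes were higher.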

How the data were processed

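The authors deposited a table of estimated counts and a table of TPM, each with 14613 or more genes in 70 libraries of poly-A RNA. The submitters' processing notes list STAR 2.7.11a (an aligner) and RSEM 1.3.1 (a quantifier); which genome build was used is not given in the sources at hand. Expected counts from RSEM are the authors' estimates that divide reads among similar sequences, so close paralogues may share reads; 18.2% of the values were not whole, and they were rounded. The deposited TPM values chose the members and describe levels.

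Counts were tested with edgeR 4.0.16 in R 4.3.3 (TMM, filterByExpr, quasi-likelihood F test) in 3 fits: all 34 female libraries (12114 genes), all 36 male libraries (12387 genes) and all 35 heads (11785 genes). All 200 members passed the filter in each. P values were adjusted by Benjamini-Hochberg over all genes of a contrast, with calls at an adjusted p below 0.05. Adjusted p values in the text are edgeR's. Fold changes are log2, with the SE from the F statistic. Totals of 12.2 to 25.1 M counts per library and 4 or 5 libraries per group set the precision. No library was a copy of another of its group (lowest chi-square per gene 5.11). The code was tested on simulated data.

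Members and gene lists were chosen with earlier results of these data known. Genes were named by a rule: the highest ratios and levels, the largest called changes without overlap in each contrast, calls shared by both generations, members not called between tissues, and called interactions. The 11 members under 1 TPM in a head and LOC100123590 were named after their values were seen. Alternatives were size factors by RLE, no filter, DESeq2 1.42.0, limma 3.58.1 on log2(TPM + 0.5) and log2(TPM + 5), the compared groups alone, other member rules (a pseudocount of 1, a minimum of 50 TPM) and each library left out. Reference names, biotypes and gene order came from assembly Nvit_psr_1.1. Its chromosomes and start positions served only to place the measured genes in order. White read too low in some groups to serve as an eye marker, and no vitellogenin symbol was found. Protein and promoter sequences were not used here.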

Additional observations from a re-analysis of the deposited data

Results flagged for a closer look

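Library C46, labelled as an F5 diploid male abdomen, had a summed level over the members of 55392 TPM, far from the 1666 TPM of the next abdomen of its group, and its Pdf, a neuropeptide of brain clock neurons, read 774 TPM. The rule for a library far from the rest has a chance rate of about 1 in 20 for continuous values only. Counts of members are whole numbers with ties, where a difference of 1 member can give a flag. Of 30 sets of group values examined by that rule, 5 gave such a library. The other 4 concern the number of members at 1 TPM or more: 194 in C62 (F14 triploid head, 200 in the other 3), 200 in C83 (F15 haploid male head, 199 in the other 3), 199 in C91 (F15 diploid male head, 200 in the other 3) and 35 in C30 (F2 diploid female abdomen, 89 in the nearest). C83 and C91 differ from their groups by a single member, LOC100113720 in C83 and LOC100117414 in C91.

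For 10 members the triploid-to-diploid difference of female heads was not the same in F14 as in F2, by a test of the interaction (edgeR, log2 scale, adjusted p over all genes). These calls were 2% of the members upward and 3% downward, against 2.31% and 3.94% of all genes, so they do not set the list apart. The F14 effect was lower by -3.67 in LOC100677966 (adjusted p = 0.00137), -3.19 in LOC100678854 (0.0222), -2.96 in LOC100121011 (0.0457), -2.77 in LOC100679330 (0.0223), -2.21 in LOC100123590 (0.00595) and -1.17 in LOC100680305 (0.00796). It was higher by 0.64 in LOC100119330 (0.0428), 0.93 in LOC100123799 (0.0217), 1.08 in LOC100679325 (0.0264) and 2.27 in LOC100678935 (0.0207). LOC100123590 was higher in F2 triploid heads (log2 fold change 0.97, adjusted p = 0.0425) and lower in F14 triploid heads (-1.24, adjusted p = 0.0120). Leaving out a single head ended the call of LOC100121011 in 14 of 17 fits, of LOC100679325 in 9 and of LOC100123799 in 7.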

How the results depend on the processing

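No paired analysis was possible because libraries are known by code alone and the numbers given to replicates follow accession order. The tissue comparisons of F2 and F14 triploid females and of F15 diploid males stayed within 1.5 times their counts under all alternatives, and the last gave 199 higher members also without C46 in the fit (an alternative chosen after seeing the data). For F5 diploid males, limma on either TPM scale gave 198 higher, with 37.9% and 36.3% of all genes higher. The compared groups alone gave 4 (1.92% of all genes), and single left-out libraries 67 to 199 (13% to 29.2% of all genes). In F2 triploid females, leaving out single libraries gave log2 fold changes of -0.66 to 2.79 for LOC100120135, -1.47 to 3.17 for LOC100113624 and -2.56 to 5.34 for LOC100119774, with the negative values without C34.

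Between generations, limma on log2(TPM + 0.5) and log2(TPM + 5) gave 74 and 69 higher in triploid heads, with 37.8% and 38.4% of all genes higher. Both gave 26 lower there, with 7.14% and 7.03% of all genes lower. In diploid male heads both gave 2 lower, with 0.967% and 0.866% of all genes lower. The compared groups alone gave 0 in each direction in those male heads, with 0.0189% of all genes higher. Left-out libraries gave 19 to 40 higher and 42 to 53 lower in triploid heads, with 16.8% to 21.7% and 19.2% to 23% of all genes. In male heads they gave 2 to 17 higher and 4 to 29 lower, with 2.18% to 6.59% and 1.75% to 8.05% of all genes. Diploid males against triploid females gave 114 and 115 lower on the TPM scales, with 42.4% and 43.9% of all genes lower. With a library left out, 53 to 71 were lower, with 14.6% to 21.4% of all genes.

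For triploidy, the compared groups alone gave 59 higher in F2 and 52 in F14, with 18.9% and 12.3% of all genes higher, and no filter gave 16 in F14, with 3.97% of all genes. Left-out heads gave 18 to 25 higher in F2 and 10 to 19 in F14, with 4.01% to 7.77% and 2.47% to 7.07% of all genes higher. In F5 males DESeq2 gave 9 higher (1.1% of the 12192 genes it gave an adjusted p). There limma gave 8 and 5 (0.246% and 0.119% of all genes), and left-out heads 0 to 9 (0.0425% to 1.02%). In F15 males DESeq2 gave 8, where 1.68% of the 2682 genes it gave an adjusted p were higher, so that share is not over all genes. There limma on log2(TPM + 0.5) gave 1 (0.0255% of all genes), and left-out heads 0 to 7 (0.0166% to 0.341%). Of the female interactions, the compared groups alone gave 23 upward and 18 downward (9.14% and 9.77% of all genes), and limma on log2(TPM + 0.5) 3 downward (2.91%). Left-out heads gave 0 to 6 upward and 3 to 9 downward (0.882% to 2.2% and 2.53% to 4.64% of all genes). Of the male ones, DESeq2 gave 1 downward (0.184% of all genes). The causes were not tested. The other member rules, sharing 181 and 145 members with the list, kept all counts within 1.5 times. Of 341 calls of named genes, a left-out library ended 71 and another alternative 83.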
